A study of Mus musculus with 14 samples.

Results

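Dmbt1 and 6 markers of bile duct epithelium (Epcam, Krt7, Krt19, Krt23, Sox9 and Cftr) were described in the liver of Apoe-deficient mice fed a Western diet without or with erythrodiol. They are 7 of the 17552 genes with a count, found by their symbols, and all 7 had at least 10 counts over both groups. They were chosen by their place in ducts and by their counts in these groups, with the question whether the duct markers moved as Dmbt1 did, so their ratios are a description with no test. Dmbt1 is also among the genes that the study lists as changed. Both groups were male mice of the strain labelled C57BL/6, which the methods of the study give as C57BL/6J, and 8 weeks of age by their labels, and all carried the deficiency in apolipoprotein E. The control group received the Western diet alone, and the erythrodiol group received the same diet with erythrodiol, a triterpene of the olive, at 10 mg/kg. The labels give 8 weeks on the diets as well as 8 weeks of age, so the age at sampling cannot be read from them. The methods of the study give a longer time on the diets. RNA of a few mice was combined in each pool, 7 pools were sequenced per group, and which mice entered which pool was not given in the sources used here.

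Dmbt1 encodes a secreted glycoprotein of mucosal and glandular epithelia that binds bacteria, and its protein repeats a scavenger receptor cysteine-rich (SRCR) domain. Cholangiocytes line the bile ducts, modify bile by moving chloride, bicarbonate and water, and make up a small share of the cells of the liver. They carry keratins that hepatocytes lack, the adhesion molecule Epcam and the transcription factor Sox9, and their number can expand in injury, a response called the ductular reaction. In mice Dmbt1 is also known as CRP-ductin, after its place in ducts and crypts.

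The count of a gene was 1 value per group, the sum of the expected counts of its 7 libraries. Control libraries gave 122889032 counts in all, and erythrodiol libraries 124686047. A control library contributed between 9.12% and 17.3% of the read pairs mapped to genes in its group, and an erythrodiol library between 13.9% and 14.6%. No spread between pools could be computed for any gene, and whether a single pool or mouse carried the counts of a gene cannot be told. The study also measured Dmbt1 in single livers by RT-qPCR, and those values were not analysed here. It reports a lower mean with erythrodiol that is not marked as significant, with a wide spread among the control livers. Intervals are exact 95% counting intervals and cover counting error only. In whole liver, fewer cholangiocytes and less RNA per cholangiocyte cannot be told apart. Apoe itself was counted 9403 times in controls and 8293 times with erythrodiol, a ratio of 0.869 (0.844 to 0.895), and since both groups carry the deficiency it checks no treatment label.

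The sequence of Dmbt1 is shown first because 2 transcripts assembled from these libraries lack one of the repeats that its longest annotated transcript holds. Only assembled transcripts that differ from the reference were listed, so whether one with all the repeats was also assembled cannot be told. Dmbt1 lies on the plus strand of chromosome 7 of GRCm38, from 131032057 to 131121628. Its longest annotated transcript in GENCODE, Dmbt1-202, has 48 exons and 6272 bases. Of these exons, 7 have the same length of 324 bases, and their sequences are alike. Identity over the 21 pairs of repeated exons ran from 73.5% to 98.1%. The pair with the highest identity was exon 17, which is missing from both assembled transcripts, and exon 4, which differ at 6 of the 324 bases and share an identical run of 137 bases. Exon 40, the last of the repeats, was the least like exon 17, with an identity of 75.6%. The first 150 bases of these exons follow, from the GENCODE transcript, 5′ to 3′, with capitals at bases that differ from the partner. Exons 17 and 4 are marked against each other, with 1 difference in the stretch, and exon 40 is marked against exon 17, with 33 differences.
Dmbt1 exon 17, chr7:131066415-131066564, plus strand: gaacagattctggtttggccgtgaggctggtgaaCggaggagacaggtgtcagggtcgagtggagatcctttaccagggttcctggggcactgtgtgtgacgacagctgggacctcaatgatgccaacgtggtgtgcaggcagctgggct
Dmbt1 exon 4, chr7:131040887-131041036, plus strand: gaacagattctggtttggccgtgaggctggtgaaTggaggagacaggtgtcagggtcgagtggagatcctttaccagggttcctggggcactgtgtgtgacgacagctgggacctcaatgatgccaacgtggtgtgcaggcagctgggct
Dmbt1 exon 40, chr7:131106153-131106302, plus strand: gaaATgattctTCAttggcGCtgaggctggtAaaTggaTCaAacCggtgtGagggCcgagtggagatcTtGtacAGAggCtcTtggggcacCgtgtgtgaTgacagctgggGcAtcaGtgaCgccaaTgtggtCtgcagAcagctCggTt

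The deposited assembly held 2 Dmbt1 transcripts beside the reference ones, and none of the 6 duct markers had such a transcript. Of all genes with a count, 28.5% had at least 1. The longer transcript had 45 exons and 6187 bases, and the shorter had 42 exons and 5806 bases. Against Dmbt1-202, both lack exon 17 and 3 short exons around it. These short exons are 33, 33 and 27 bases long and are shown because they are missing together with the repeat. They have no capitals, since they were compared with no other exon.
Dmbt1 exon 15, chr7:131063394-131063426, plus strand: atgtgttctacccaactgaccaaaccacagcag
Dmbt1 exon 16, chr7:131065064-131065096, plus strand: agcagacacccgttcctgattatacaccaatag
Dmbt1 exon 18, chr7:131069733-131069759, plus strand: cttctcaatcaagcagtcccacacctg

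The 4 missing exons come to 417 bases. Whether the assembly could tell exon 17 apart from exon 4, which is most like it, was not tested. In both assembled transcripts, 6 of the 7 repeated exons are kept. Both also hold an exon of 312 bases, at 131037822 to 131038133, that Dmbt1-202 lacks and another GENCODE transcript holds. Its sequence was not compared with the repeats. The shorter transcript also lacks exon 3, of 33 bases at 131039017 to 131039049, exon 32, of 148 bases at 131093099 to 131093246, and exon 33, of 200 bases at 131094707 to 131094906. Its 7 missing exons come to 798 bases. Both assembled transcripts start at 131032060, 20 bases before Dmbt1-202, with a first exon of 86 bases whose start no GENCODE transcript shares, and end at the same base as Dmbt1-202. GENCODE holds 6 Dmbt1 transcripts in all, of which the one that holds the exon of 312 bases has 41 exons and 5779 bases and also lacks exons 15, 16 and 17. The assembly was made over the libraries together, so no assembled transcript is tied to a group. None of the 16 splicing events deposited for the comparison of the groups was in Dmbt1 or in a duct marker.

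**Figure D1:**
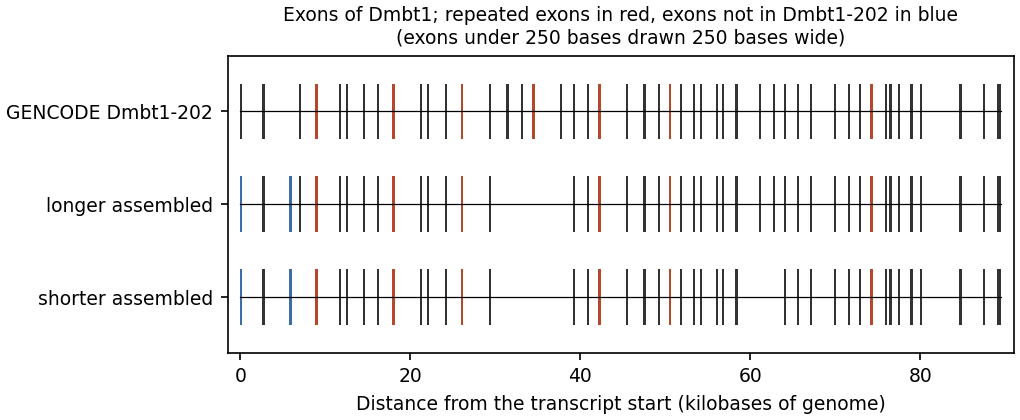
Exons of Dmbt1 in the GENCODE transcript Dmbt1-202 and in the 2 assembled transcripts, along the genome in kilobases from the transcript start. The 7 repeated exons of 324 bases are in red. Of these, 1 is missing from both assembled transcripts, with 3 short exons around it. In blue are their first exon, which starts 20 bases before that of Dmbt1-202, and an exon of 312 bases that Dmbt1-202 lacks. Exons under 250 bases are drawn 250 bases wide.

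Dmbt1 was the gene of the group with the largest difference between the diets. It had 1060 control counts and 73 with erythrodiol. The level, in counts per kilobase per 1000000 counts, was 1.39 (1.31 to 1.48) in the control and 0.0946 (0.0742 to 0.119) with erythrodiol. The ratio of erythrodiol to control was 0.0679 (0.0528 to 0.0861), or 14.7-fold lower (11.6 to 18.9), a log2 ratio of -3.88. The median log2 ratio of the 13291 genes with at least 100 counts over both groups was 0.16, and relative to it Dmbt1 was at -4.04.

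The duct markers were spread on both sides of 1, and none of the 6 was past 2-fold. Over all genes with at least 10 counts, 1.77% were over 2-fold lower and 1.39% over 2-fold higher with erythrodiol. Dmbt1 was thus the single gene of the 7 past this limit, and since the choice of the 7 used the same contrast, nothing is read from that count. The median log2 ratio of the 6 markers was -0.42, or -0.59 relative to the median gene, and that of all 15502 genes with at least 10 counts was 0.15. Of the 6, 5 had a ratio below 1, as did 31.9% of all genes with at least 10 counts. The counting interval lay below 1 for Epcam, Krt19 and Cftr, which 15.9% of all genes did, above 1 for Krt23, which 47.7% of all genes did, and held 1 for Krt7 and Sox9. At a limit of 1.5-fold, Krt19 and Cftr joined Dmbt1, and 5.47% of all genes were lower by over 1.5-fold.

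**Figure D2:**
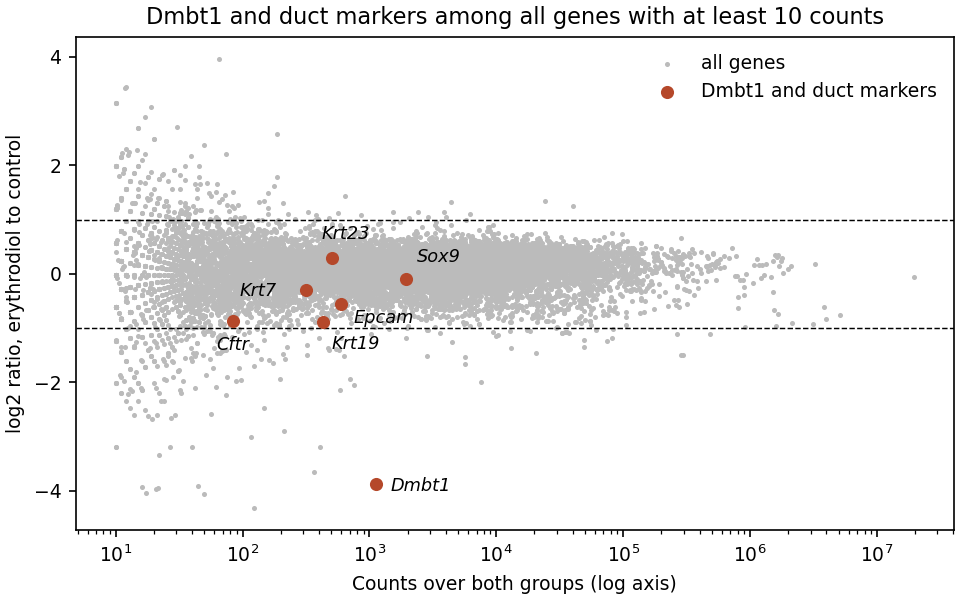
The log2 ratio of erythrodiol to control against the counts over both groups (log axis) for the genes with at least 10 counts, with Dmbt1 and the 6 duct markers in colour and dashed lines at 2-fold. Dmbt1 lies at -3.88, and the 6 markers lie between the dashed lines.

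Krt19, a small type I keratin that is the usual marker of bile ducts in liver, had the lowest ratio of the markers. It had 280 control counts and 153 with erythrodiol, a ratio of 0.540 (0.439 to 0.658) and a log2 ratio of -0.89. Of the genes with at least 100 counts, 0.865% had a lower ratio. Relative to the median gene its log2 ratio was -1.05, past 2-fold.

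Cftr, the chloride channel of the apical membrane through which cholangiocytes drive bicarbonate and water into bile, was the rarest of the 7 genes. It had 54 control counts and 30 with erythrodiol, a ratio of 0.548 (0.338 to 0.871) and a log2 ratio of -0.87. Its interval spans both the ratio of Krt19 and that of Krt7. Relative to the median gene it was at -1.03, also past 2-fold.

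Epcam, a homotypic adhesion molecule of the lateral membrane of simple epithelia, was lower by less. It had 353 control counts and 244 with erythrodiol, a ratio of 0.681 (0.576 to 0.804) and a log2 ratio of -0.55. Lower ratios were found for 3.66% of genes with at least 100 counts.

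Krt7, the type II keratin that pairs with Krt19 in ducts, had 174 control counts and 144 with erythrodiol. Its ratio was 0.816, with an interval of 0.649 to 1.02 that holds 1, and its log2 ratio was -0.29. The intervals of Krt7 and Krt19 overlap between 0.649 and 0.658.

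Sox9, a transcription factor of the biliary lineage that is also present in some periportal hepatocytes, was the most abundant of the 7 genes per length and the nearest to 1. It had 999 control counts and 953 with erythrodiol, a ratio of 0.940 (0.859 to 1.03) and a log2 ratio of -0.09. Since the median gene was at 0.16, Sox9 was at -0.25 relative to it, and 21.1% of genes with at least 100 counts had a lower ratio.

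Krt23, a type I keratin found in bile ducts and also in stressed or proliferating liver, was the one marker that was higher with erythrodiol. It had 226 control counts and 282 with erythrodiol, a ratio of 1.23 (1.03 to 1.47) and a log2 ratio of 0.30. Relative to the median gene this was 0.14, and 71.9% of genes with at least 100 counts had a lower ratio. The intervals of Krt19 and Krt23, a pair of type I keratins that lie near each other on chromosome 11 (Krt19 from 100140810 to 100145926, Krt23 from 99477973 to 99493120), do not overlap.

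**Figure D3:**
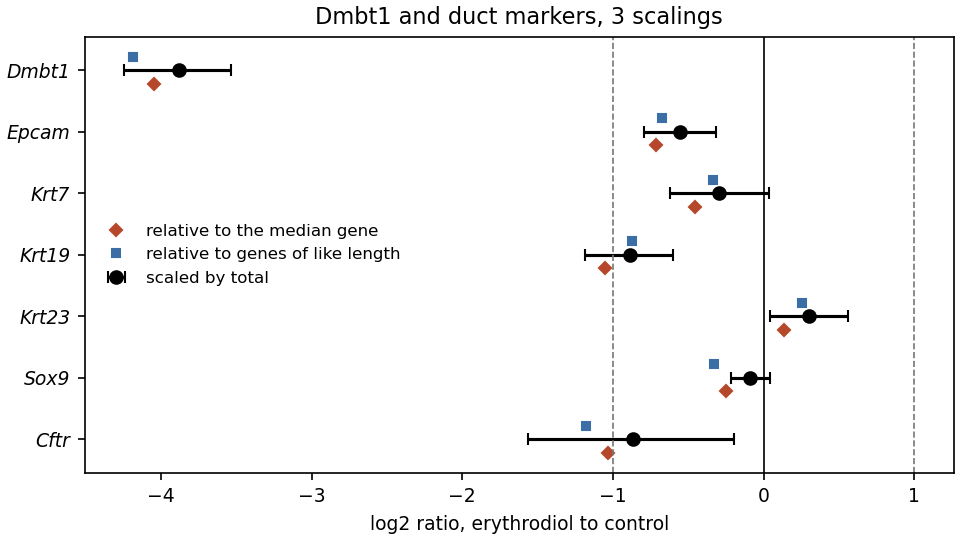
The log2 ratio of erythrodiol to control of each gene, scaled by the group totals (black, with the 95% counting interval), relative to the median gene (diamonds) and relative to genes of like length (squares). Dashed lines mark 2-fold; Dmbt1 is far to the left of the 6 markers under each scaling, and Krt23 alone is on the right of 0.

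Added together, the 6 markers had 2086 control counts and 1806 with erythrodiol, a ratio of 0.854 (0.801 to 0.909). Sox9 supplied much of this sum, and without it the other 5 markers had 1087 and 853 counts, a ratio of 0.774 (0.706 to 0.847). The level of Dmbt1 against the markers does not depend on how the groups are scaled. Per count of the 6 markers, Dmbt1 had 0.508 control counts and 0.0404 with erythrodiol, 12.6-fold less (9.82 to 16.3). Against single markers, the smallest difference was that to Krt19, 7.96-fold less Dmbt1 (5.77 to 11.0), and the largest was that to Krt23, 18.1-fold less (13.4 to 24.7). The lowest bound of these intervals was that against Cftr, 4.67-fold. These values come from the counts by which the genes were chosen and test nothing.

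The order of the levels differed between the groups. In the control group the levels in counts per kilobase per 1000000 counts, from high to low, were 1.96 for Sox9, 1.63 for Krt19, 1.39 for Dmbt1, 1.39 for Epcam, 1.18 for Krt23, 0.884 for Krt7 and 0.0711 for Cftr. Neighbours from Krt19 to Krt23 in that order had overlapping counting intervals, and the other neighbours did not. With erythrodiol the order was 1.84 for Sox9, 1.45 for Krt23, 0.949 for Epcam, 0.882 for Krt19, 0.721 for Krt7, 0.0946 for Dmbt1 and 0.0389 for Cftr. Here Epcam and Krt19, and Krt19 and Krt7, had overlapping intervals. Dmbt1 went from the third place to the sixth, Krt19 from the second to the fourth and Krt23 from the fifth to the second.

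**Figure D4:**
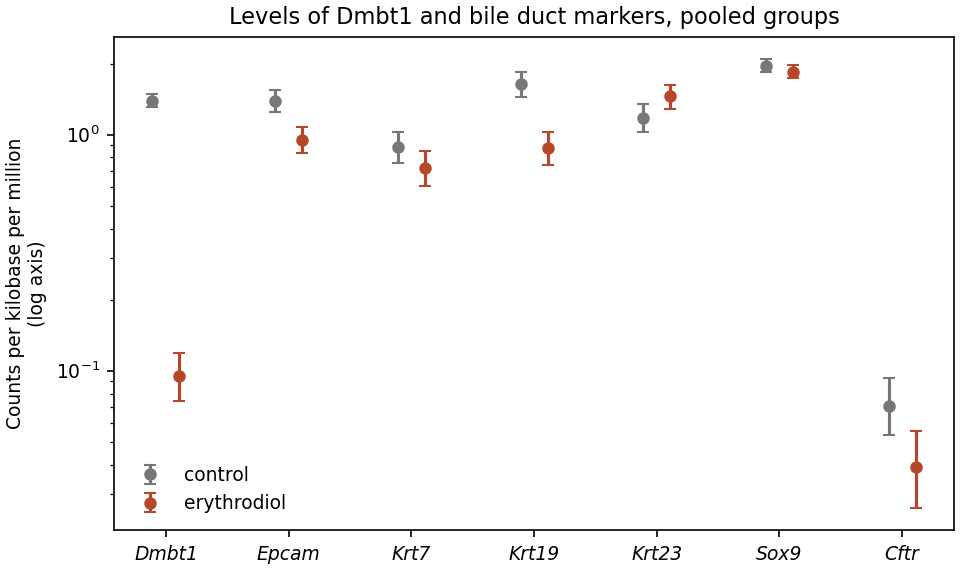
Levels of Dmbt1 and the 6 duct markers in counts per kilobase per 1000000 counts (log axis) in the control and erythrodiol groups, each the sum over 7 libraries, with 95% counting intervals. The 2 intervals of Dmbt1, Epcam and Krt19 lie apart, and those of Krt7, Krt23, Sox9 and Cftr overlap.

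In the gene ontology terms deposited with the table, 5 of the 7 genes (Cftr, Dmbt1, Epcam, Krt19 and Krt7) carry the term extracellular exosome, which 2277 genes of the table carry. Cftr and Epcam share apical plasma membrane, carried by 255 genes, and Krt19 and Krt23 share intermediate filament, carried by 35. The genes are on 5 chromosomes, with Krt19, Krt23 and Sox9 on chromosome 11. The annotated neighbours of Dmbt1 did not share its difference. The nearest protein-coding gene before it, Htra1, a secreted serine protease, had 542 control counts and 455 with erythrodiol, a ratio of 0.827 (0.729 to 0.939). Plekha1, an adaptor of phosphoinositide signalling, had 2210 and 2461, a ratio of 1.10 (1.04 to 1.16), and Btbd16 had 41.9 and 66.6, a ratio of 1.57 (1.05 to 2.37). The next 3 genes after Dmbt1, 4933402N03Rik, 5430419D17Rik and Cuzd1, had no row in the table of counts.

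The genes whose log2 ratio was nearest to that of Dmbt1, among those with at least 100 counts, were Cyp2b13, Gm3873, Prtn3, Akr1c18 and Gm10705. The likeness rests on 1 ratio of pooled values per gene. Cyp2b13, a cytochrome P450, was nearest, with 336 control counts and 27.0 with erythrodiol, a log2 ratio of -3.66. Prtn3, a protease of neutrophil granules, had 367 and 41 counts, a log2 ratio of -3.18. None of the 5 is on the duct lists used here.

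Other genes of the bile duct were then described in lists by role, chosen with results of these data known. Their counts and medians are given beside those of all genes with at least 10 counts. Over all genes with this minimum, 1.77% were over 2-fold lower, 1.39% were over 2-fold higher and the median log2 ratio was 0.15. Spp1, Mmp7, Lcn2, Ltf, Krt8, Krt18 and Cd5l are each on more than 1 list, so the lists are not independent of each other. Of 16 genes of the surface, junctions and cytoskeleton of ducts, 2 were over 2-fold lower and none over 2-fold higher, with a median of -0.40, close to the -0.42 of the 6 markers. Cldn4, a claudin of tight junctions, had 78 control counts and 29 with erythrodiol, a ratio of 0.366 (0.231 to 0.568). Tspan8, a tetraspanin of the epithelial surface, had 337 and 133 counts, a ratio of 0.389 (0.316 to 0.477). These are the 2 genes past 2-fold. Below 1 but within 2-fold, with intervals below 1, were Prom1, which marks progenitor and duct cells, at 0.542, Cd24a, a surface glycoprotein, at 0.617, Ehf, an epithelial transcription factor, at 0.619, St14, a membrane protease, at 0.646, Spp1, the secreted phosphoprotein osteopontin, at 0.659, the claudin Cldn7 at 0.676, and Krt8 and Krt18. These last are the keratin pair that hepatocytes and ducts share, at 0.851 and 0.884 with 30771 and 23366 control counts. Spp1 was among the most abundant genes of the list, with 12503 control counts and 8363 with erythrodiol. Vtcn1, a B7-family protein, was the highest, with 203 and 385 counts, a ratio of 1.87 (1.57 to 2.23). Cdh1, the epithelial cadherin, was higher, with 5187 and 6846 counts.

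The lists of duct transport, specification and cilium had medians nearer to that of all genes. Of the 10 transport genes with at least 10 counts, 1 was over 2-fold lower and the median was 0.10. That gene was Sctr, the receptor through which secretin acts upstream of Cftr, with 45 control counts and 21 with erythrodiol, a ratio of 0.460 (0.260 to 0.788). Of other genes of duct transport, Slc51b, a subunit of a bile acid exporter, was at 0.598 (0.379 to 0.933), beside the 0.548 of Cftr. Slc4a2, the exchanger of chloride and bicarbonate, was at 1.31 and the water channel Aqp1 at 1.13. Slc4a2 and Aqp1 had 3668 and 8053 control counts, beside 56 for Slc51b and 54 for Cftr. Which cells of whole liver supplied the counts of these lists cannot be told. The 12 genes described here that specify the duct lineage, through Notch and Yap signalling and the Onecut factors among others, had a median of 0.09, with none over 2-fold lower. Onecut1, a transcription factor of hepatocytes and ducts, was over 2-fold higher, with 947 and 1975 counts, a ratio of 2.06 (1.90 to 2.22). Relative to the median gene the log2 ratio of Onecut1 was 0.88, within 2-fold. Onecut2, the most abundant of the 12, had 10165 and 15777 counts, a ratio of 1.53, and Jag1, the Notch ligand, was at 1.07. The 6 genes of the primary cilium, with which cholangiocytes sense bile flow, had a median of 0.26 and none past 2-fold.

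Genes of the ductular reaction and its inflammatory signals were counted the same way. Of 10, 2 were over 2-fold lower, none higher, and 9 had a ratio below 1, beside 1.77%, 1.39% and 31.9% of all genes, and the median was -0.46. Mmp7, a matrix protease made by injured ducts, had 77 control counts and 20 with erythrodiol, a ratio of 0.256 (0.148 to 0.423), and the study lists it among its changed genes. Cxcl5, a chemokine that attracts neutrophils, had 103 and 45 counts, a ratio of 0.431 (0.296 to 0.617). The most abundant, Lcn2, an iron-binding protein of epithelia and neutrophils that hepatocytes also make, was at 0.735.

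Of the keratins listed beside the duct ones, Krt8 and Krt18 had at least 10 counts, and the other 6 in the table (Krt4, Krt5, Krt13, Krt14, Krt17 and Krt20), which belong to stratified or gut epithelia, had at most 6 counts in either group. Relatives of Dmbt1 that carry an SRCR domain had a median of -0.06 over 15 genes, with 1 over 2-fold lower. That gene was Marco, a scavenger receptor of macrophages, with 6374 and 3086 counts, a ratio of 0.477 (0.457 to 0.498). Cd5l, which Kupffer cells secrete, was the most abundant, at 0.615, and Cd163, a macrophage receptor of haemoglobin, had 211 and 321 counts. Of the proteins that are known to bind Dmbt1 or to be secreted with it, 10 had at least 10 counts, 1 was over 2-fold lower and the median was -0.55. The most abundant, C1qb, had 16677 and 12715 counts, a ratio of 0.751, and C1qa, C1qc and Lgals3 were also below 1. Tff3, a trefoil peptide of mucus, had 776 and 503 counts, a ratio of 0.639. Sftpd, a surfactant lectin, had 171 and 96, a ratio of 0.553. Above 1 were Sftpa1, with 180 and 211 counts, a ratio of 1.16 (0.942 to 1.42), and Tff1, with 10 and 16 counts. Lactoferrin, Ltf, which the study also lists, was the one past 2-fold, with 59 and 16 counts.

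Mucous and glandular epithelium is the kind of epithelium in which Dmbt1 is abundant. Of the 16 genes of its list with at least 10 counts, 11 were over 2-fold lower and none higher, beside 1.77% and 1.39% of all genes. The median was -1.69. Among them were the mucins Muc4, with 20 control counts and 4 with erythrodiol, and Muc6, with 12 and 3. Olfm4, a secreted protein of crypts, had 34 and 8 counts, Clic6, an intracellular chloride channel protein, 50 and 12, and Duox2, the oxidase of mucosal surfaces, 72 and 22. Sprr1a, a protein of the cornified envelope, had the most counts of those past 2-fold, 132 and 43 counts. These genes had few counts beside Dmbt1, and 9 of the 16 are genes that the study lists as changed in these samples, so their direction is not independent evidence. Without them 7 genes are left, with a median of -0.48 and 2 over 2-fold lower. These 2 are Muc6 and Duoxa2, the latter with 14 and 7 counts and an interval that holds 1 (0.168 to 1.30). Over the 6 genes of the list with at least 100 counts the median was -0.46. The abundant ones differed less, with the mucin Muc1 at 0.561 (225 and 128 counts) and Pigr, the receptor that carries antibody into bile, at 1.23 (130242 and 162240 counts).

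**Figure D5:**
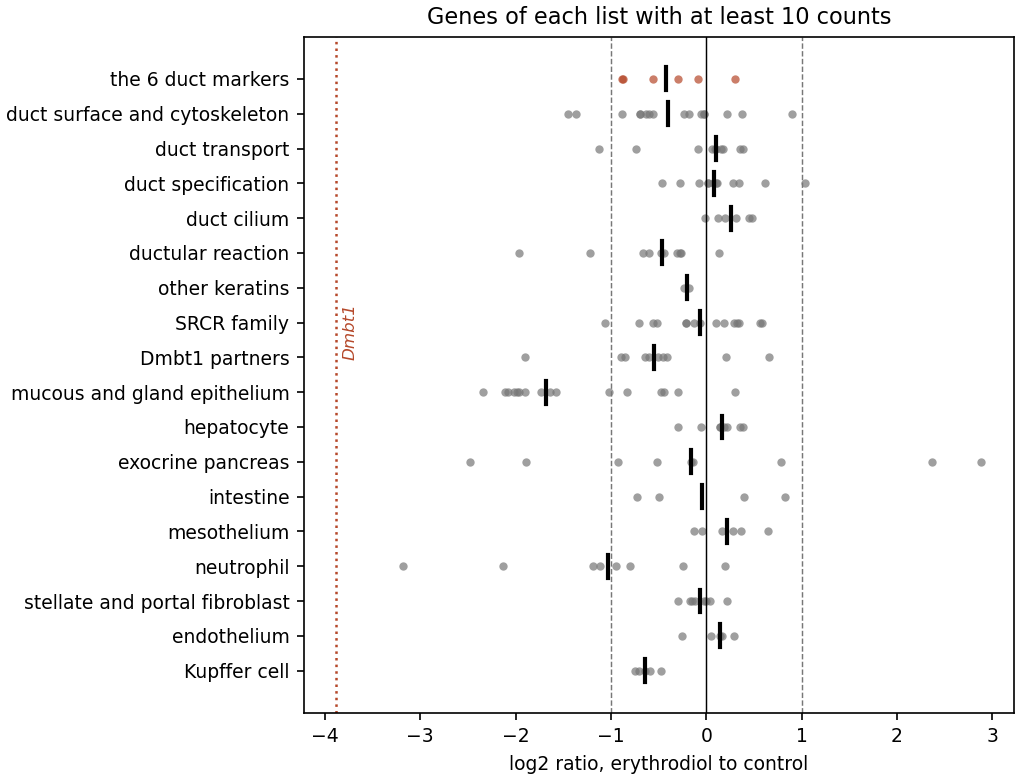
The log2 ratio of erythrodiol to control of each gene with at least 10 counts (points) and the median (black bars) for the 6 duct markers and 17 gene lists, with dashed lines at 2-fold and a dotted line at the ratio of Dmbt1. No gene of the lists reaches Dmbt1 at -3.88, and the mucous and gland list has the lowest median, -1.69, which is -0.46 over its genes with at least 100 counts, where the neutrophil list is lower at -1.19.

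Markers of other cells and tissues that a piece of liver could hold moved in part with Dmbt1, and their part in its difference was not tested. The 9 neutrophil and myeloid granule genes summed to 1639 control counts and 674 with erythrodiol. Of the 8 with at least 10 counts, 4 were over 2-fold lower, beside 1.77% of all genes, and the median was -1.03. The 4 were S100a9 (702 and 329 counts), S100a8 (411 and 183), Prtn3 and Mpo (13 and 3). Ly6g went the other way, with 39.0 and 45.5 counts, a ratio of 1.15 (0.724 to 1.79). The intervals of Elane (0.275 to 1.16) and Retnlg (0.526 to 1.35) held 1, so the list did not move as a whole. The 5 Kupffer cell markers had a median of -0.65 and were all within 2-fold. Of 9 pancreatic acinar genes, 2 were over 2-fold lower and 2 over 2-fold higher. The 9 summed to 1857 and 1324 counts, of which Cela1 alone supplied 1574 and 1113. Of the 2 lower, Cpb1 had 11 and 3 counts, with an interval of its ratio that holds 1 (0.0482 to 1.02). Amy2a5, an amylase, was the furthest below 1 (124 and 22.5 counts) and Cpa1, a carboxypeptidase, the furthest above 1 (2 and 15 counts), and both are on the study's lists, as is Prtn3. Of 7 intestinal genes, 4 had at least 10 counts, with a median of -0.05. The defining Cdx2, Sis and Alpi had at most 1 count in a group, each being at 0 in one of them. Medians were 0.16 for 8 hepatocyte genes, 0.22 for 6 mesothelial genes, -0.07 for 8 genes of stellate cells and portal fibroblasts and 0.14 for 5 endothelial genes, with none of these past 2-fold.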

How the data were processed

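Liver RNA of 7 control and 7 erythrodiol pools was sequenced as poly-A libraries. The authors mapped clean reads with HISAT, assembled transcripts with StringTie, merged coding ones with the reference, and counted reads with Bowtie2 and RSEM. The deposited gene values are expected counts, not normalized, 1 per gene and group. The authors deposited for each library the counts of clean reads and genes detected, and mapping rates in percent. The deposited log2 ratios, p-values and q-values of the authors' own comparison were not used. Versions of the mapping tools were not given in the sources used here.

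Counts were scaled by the group totals, with Clopper-Pearson intervals at 95% on counts rounded to whole numbers. A group at 0 was set to 3 counts. No test across genes was possible with 1 value per group, although the design allowed for edgeR had counts per library existed. Levels are counts per kilobase per 1000000 counts. The genes and lists were chosen with earlier results of these data known. Named genes are the 7 genes, Apoe and a selection from 17 lists. The selection leaned to genes that are abundant or far from 1, but it was not complete and holds some others. Also named are 3 neighbours on each side of Dmbt1 and the 5 genes nearest to it in ratio. A gene of the list of duct specification is not reported here and was left out of its count and median. Coordinates of exons are those of GENCODE M21 and of genes those of RefSeq, both on GRCm38. Ratios and intervals were tested on simulated data with counting error alone, which hold no spread between pools or mice. Alternatives were 3 scalings, a pseudocount of 1, genes of like length in 20 classes, a 1.5-fold limit and other minimum counts. The tools were scipy 1.17.1, pandas 2.3.3 and numpy 2.4.6 in Python 3.11.15, with figures from matplotlib 3.10.9.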

Additional observations from a re-analysis of the deposited data

Results flagged for a closer look

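Control replicate 3 lay apart from the other 6 control libraries in the share of clean reads mapped to genes, 64.3%. Its gap to the nearest library was 0.588 of the range of the group, above the critical value of 0.568 for 7 samples. Chance gives such a gap in about 1 in 20 groups for a single measure. Clean reads, mapping rates and genes detected were all checked in both groups, so chance gives at least 1 flag more often than that. This library supplied 9.12% of all control read pairs mapped to genes, the smallest share of the 7. Its share of the counts of Dmbt1 and the duct markers is not known, and its counts could not be taken out of the sums.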

How the results depend on the processing

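Of 35 alternative values of the log2 ratios of the 7 genes, 32 lay within the counting interval of the reported ratio, and none changed its sign. The 3 others were those of Sox9, at -0.25 scaled by the median ratio of genes with 100 counts, -0.25 scaled by the upper quartile and -0.33 relative to genes of like length. Scaling by the median ratio or the upper quartile lowers every gene by 0.16, which takes Krt19 and Cftr past 2-fold, and leaving out the 100 most abundant genes lowers them by 0.11. Relative to genes of like length, Cftr but not Krt19 passed 2-fold. The number of the 7 genes past 2-fold was 1 as reported, 3 scaled by the median ratio or by the upper quartile, 2 relative to genes of like length and, at a limit of 1.5-fold, 3. The median of the 6 markers, -0.42 as reported, was -0.59 scaled by the median ratio or by the upper quartile and -0.53 without the 100 most abundant genes. Dmbt1 relative to the summed markers was 0.0795 of its control value and 0.0805 with a pseudocount of 1. Of 35 alternative medians of the gene lists, 6 moved by over 0.1 and none changed sign. The largest move was that of mucous and glandular epithelium, from -1.69 to -0.46 with at least 100 counts. No paired analysis was possible because the gene counts are sums over each group, and for the same reason no library could be left out and DESeq2 was not run. The depth limits Cftr most, with 54 and 30 counts.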
